A study of Mus musculus with 2 samples.

Results

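The miRNAs of imprinted loci are the subject here: 114 of the 1247 mouse miRNAs on the array, of which 104 come from the Dlk1-Dio3 locus and 10 from other loci, namely miR-675 (H19), miR-483 (Igf2), miR-335 (Mest) and miR-296 and miR-298 (beside Gnas). They were chosen by name. Of the 114 names, 109 carry a chosen number as written, and 5 arms of miR-299 and miR-496 whose names carry a letter (miR-299a-3p, miR-299b-5p, miR-299b-3p, miR-496a-3p and miR-496a-5p) were added because they map inside the locus. miR-496b was not added, since RefSeq places it on chromosome 19. The members were read by 306 of the 3105 miRNA probes.

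RNA came from c-Kit+ Sca1+ Lineage- cells of adult C57/BL6 bone marrow, a sorted population enriched for hematopoietic stem and progenitor cells. The KO array held cells of genotype CreERT, Tif1bf/f, and the WT array cells of genotype CreERT, Tif1bw/w, so that both genotypes carry the CreERT transgene. Tif1b (Trim28, KAP1) is a corepressor recruited by zinc finger proteins. The promoter of the transgene, how and when recombination was induced, and whether animals were pooled are not given in the sources used here. There was 1 array per genotype, so every difference below describes these arrays and no test between genotypes was possible. The array has no probe for Tif1b, and its loss was not checked.

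An imprinted gene is read from the allele of one parent only. In the Dlk1-Dio3 locus the maternal allele gives a series of long non-coding RNAs, Meg3, the Rtl1 antisense RNA, Rian and Mirg, with the miRNAs among them, while the paternal allele gives the proteins Dlk1, Rtl1 and Dio3. In mouse embryos and embryonic stem cells, Tif1b, brought by Zfp57, keeps the DNA methylation of imprinting control regions, and in mouse fetal liver the maternal RNAs of the locus have been linked to the upkeep of stem cells.

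Of the 114 names, 107 matched RefSeq's miRNA table (GRCm38.p6). The sequences the results turn on are those of the single measured member and its partner arm, of the 3 brightest members of other loci and of a pair of Rtl1 antisense members. They are given 5′ to 3′, with the seed (bases 2 to 8) in capitals.
miR-3072-5p: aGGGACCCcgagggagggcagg
miR-3072-3p: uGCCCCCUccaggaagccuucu
miR-335-3p: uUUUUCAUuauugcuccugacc
miR-483-3p: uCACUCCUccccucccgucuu
miR-296-5p: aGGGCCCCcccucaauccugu
miR-127-3p: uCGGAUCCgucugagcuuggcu
miR-136-5p: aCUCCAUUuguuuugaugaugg
miR-3072-5p lies at chr12:109747893-109747914 and miR-3072-3p at chr12:109747928-109747949 on the plus strand inside Mirg. miR-335-3p lies at chr6:30741354-30741375 on the plus strand inside Mest, and miR-483-3p at chr7:142654932-142654952 on the minus strand inside Igf2. miR-296-5p lies at chr2:174267093-174267113 on the minus strand, outside the Gnas gene.

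Each probe is the reverse complement of the 3′ part of its miRNA, and a miRNA has probes that differ by a base or a few. Of the 289 probes of members with a RefSeq sequence, all 289 matched their miRNA without a mismatch. They ended at the miRNA's 3′ end in 282 cases, covered the whole seed in 29 and no seed base in 88. The probes of miR-299b-3p also matched miR-299a-3p, and the 12- and 13-base probes of miR-758-3p also matched miR-412-3p. The probes of the measured member and of the brightest others are shown as the array's probe column gives them, with the bases that the longer probes add in capitals.
miR-3072-5p, shorter probe: cctgccctccct
miR-3072-5p, longer probe: cctgccctccctC
miR-483-3p, shorter probe: aagacgggaggggagga
miR-483-3p, longer probe: aagacgggaggggaggaG
miR-335-3p, shortest probe: ggtcaggagcaataatgaa
miR-335-3p, longest probe: ggtcaggagcaataatgaaAAA

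The values are processed signals, spot intensities on a linear scale from which the scanner software subtracted a fitted spatial trend, so that a dim spot can lie below 0. A probe's value is the mean of its spots, without spots marked as outliers, and a miRNA's value is the mean of its probes. A probe was called measured when over 50% of those spots were marked well above background, and a miRNA when at least 1 of its probes was. Probes differ in length and base composition, so the signals of different probes do not rank miRNAs by abundance. SDs are over spots of 1 array, and are technical.

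No imprinted-locus miRNA was measured on the KO array, and 1 of 114 was on the WT array, miR-3072-5p. Over all miRNAs the share measured was 6.26% (78 of 1247) on the KO array and 8.02% (100 of 1247) on the WT array. By the software's own detection call, 1 member, miR-3072-5p, was detected on each array, against 7.94% of all miRNAs on the KO array and 9.62% on the WT array. In the deposited value table the other 113 members stood at the floor of 0.1 on both arrays.

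The KO array was the dimmer, with a mean processed signal of 9.14 against 21.9 on the WT array. Scaled signals were divided by an array's 75th percentile, taken across those 113 probes that both arrays measured, which was 213 on KO and 487 on WT. Of 18 arms of blood cell miRNAs (miR-142, miR-150, miR-155, miR-181 and miR-223), 3 were measured on the KO array and 7 on the WT array. Of the 2 arms listed for endothelium, miR-126-3p was measured on both arrays, but miR-126 is also counted among stem cell miRNAs. Of the other markers, 0 of 4 erythroid arms, 0 of 16 stromal and muscle arms, 0 of 8 epithelial and liver arms and 0 of 7 brain arms were measured on either. What part the dimmer array and these cell markers have in the results on imprinted-locus miRNAs was not tested.

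miR-3072-5p, in the non-coding RNA Mirg at the far end of the miRNA clusters, was measured through its 13-base probe. On the KO array that probe averaged 20.0 ± 3.27 (SD over 18 spots), with a lowest spot of 12.2, a median of 20.4 and a highest of 25.1. On the WT array it averaged 48.4 ± 6.09 (SD over 20 spots), with a lowest spot of 34.9, a median of 49.0 and a highest of 58.1. Before scaling these spots of the 2 arrays did not overlap, and the KO array was the lower at 18 of 18 spot positions. The KO array was dimmer as a whole, with a scaling value of 213 against 487 on WT. How many other probes were apart in the same way is not given here. After scaling the KO array was the lower at 14 of 18. Of the KO spots 7 of 18 (38.9%) were well above background, against 20 of 20 of the WT spots. The 12-base probe of the same miRNA averaged -4.52 ± 4.51 (SD over 18 spots) on the KO array and 0.598 ± 2.72 (SD over 19 spots) on the WT array, so neither array measured it.

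**Figure D1:**
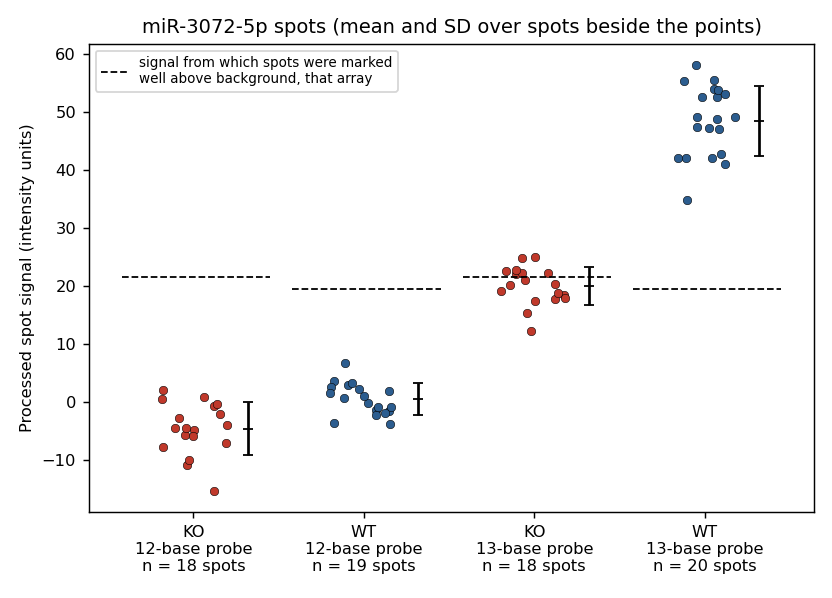
Processed signal of the spots not marked as outliers of the 2 miR-3072-5p probes (vertical axis, intensity units), KO array left of WT array, with the probe mean and SD over spots. The 13-base probe lies between 12.2 and 25.1 on the KO array and between 34.9 and 58.1 on the WT array, and the 12-base probe between -15.2 and 2.09 on the KO array and between -3.76 and 6.82 on the WT array.

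After scaling, the signal of the 13-base probe was 0.0942 on the KO array and 0.0996 on the WT array. Because the KO array did not measure this miRNA, only a bound can be given, and its level was set against the lowest measured KO probe (21.1, of miR-467f). With that probe taken as the ceiling, the WT level was at least 1.01-fold the KO level after scaling, and at least 2.30-fold before it. Put the other way, with the same ceiling, miR-3072-5p stood in KO cells at most at 0.994 of its WT level after scaling and at most at 0.435 of it before. Unmeasured KO probes reached 22.8, above that ceiling, so these bounds are not strict. The scaled bound lies near 1, which leaves no direction settled, and it did not hold under every setting. When over 75% of spots had to be well above background, the KO level could be up to 1.16 of the WT level, and with normexp background correction and an offset of 50 up to 1.48. miR-3072-5p was 1 of 28 miRNAs measured on the WT array only (2.25% of 1247), beside 6 measured on the KO array only (0.481%), none of them a member.

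The other features of miR-3072-5p were as follows. Its partner arm, miR-3072-3p, averaged -3.80 ± 2.94 on the KO array and -4.06 ± 3.35 on the WT array. Among 34 probes of 13 bases with at least 70% G and C on the array, 0 were measured on KO and 1 on WT, which was that of miR-3072-5p. Of the other mature miRNAs, the longest run shared with its probe's target was 9 bases, in miR-149-3p, which was not measured. A measured miRNA, miR-17-3p, shared a run of 7 bases, and its part in the probe's signal was not tested. Where probes differed by 1 base at the end, a longer probe measured alone was common on the array: among 1858 such pairs the longer probe was measured in 78 on KO and in 100 on WT, and in 35 of those 78 and 39 of those 100 the shorter probe was not. These counts do not give the size of the step, which for miR-3072-5p on WT went from 0.598 to 48.4. Where both probes were measured, the log2 ratio of longer to shorter had a median of 1.26 on KO and 1.60 on WT. The highest was 3.94 on KO and 4.02 on WT.

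The 113 other members were as dim as the rest of the unmeasured miRNAs. On the KO array their signals ran from -8.06 to 10.4 with a median of -2.64, and on the WT array from -8.31 to 7.49 with a median of -2.46. The 1028 other miRNAs measured on neither array had medians of -2.41 on KO and -2.05 on WT. The 7 negative control probes averaged between 5.05 and 9.89 on KO and between 5.07 and 8.86 on WT, above the median of the members on both arrays. A probe brighter than the brightest negative control was held by 3 of 114 members on KO (2.63%, miR-3072-5p, miR-483-3p and miR-335-3p) and by 2 on WT (1.75%, miR-3072-5p and miR-335-3p), against 9.22% of all miRNAs on KO and 11.7% on WT.

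**Figure D2:**
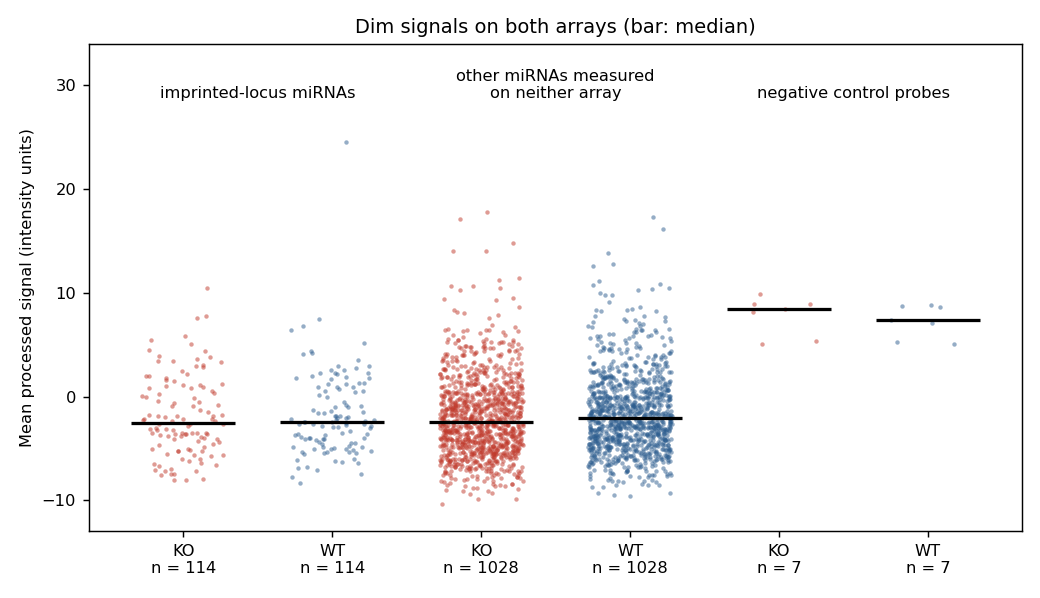
Processed signals (vertical axis, intensity units) of the imprinted-locus miRNAs, of the other miRNAs measured on neither array and of the negative control probes on the KO array and the WT array. The members have medians of -2.50 on KO and -2.46 on WT, close to those of the other unmeasured miRNAs and below the negative controls.

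Single spots were also examined. Members other than miR-3072-5p had 18 spots well above background on the KO array, in 18 miRNAs, and 24 on the WT array, in 22 miRNAs. All of these spots were marked as outliers by the software, and 0 were left among the spots kept. The highest kept spot of those members was 21.4 on KO and 17.5 on WT, both of miR-483-3p. Of 1000 negative control spots, 10 on KO and 7 on WT were well above background. On each array the mark acted as a signal threshold, with a lowest marked spot of 21.7 on KO and 19.6 on WT.

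**Figure D3:**
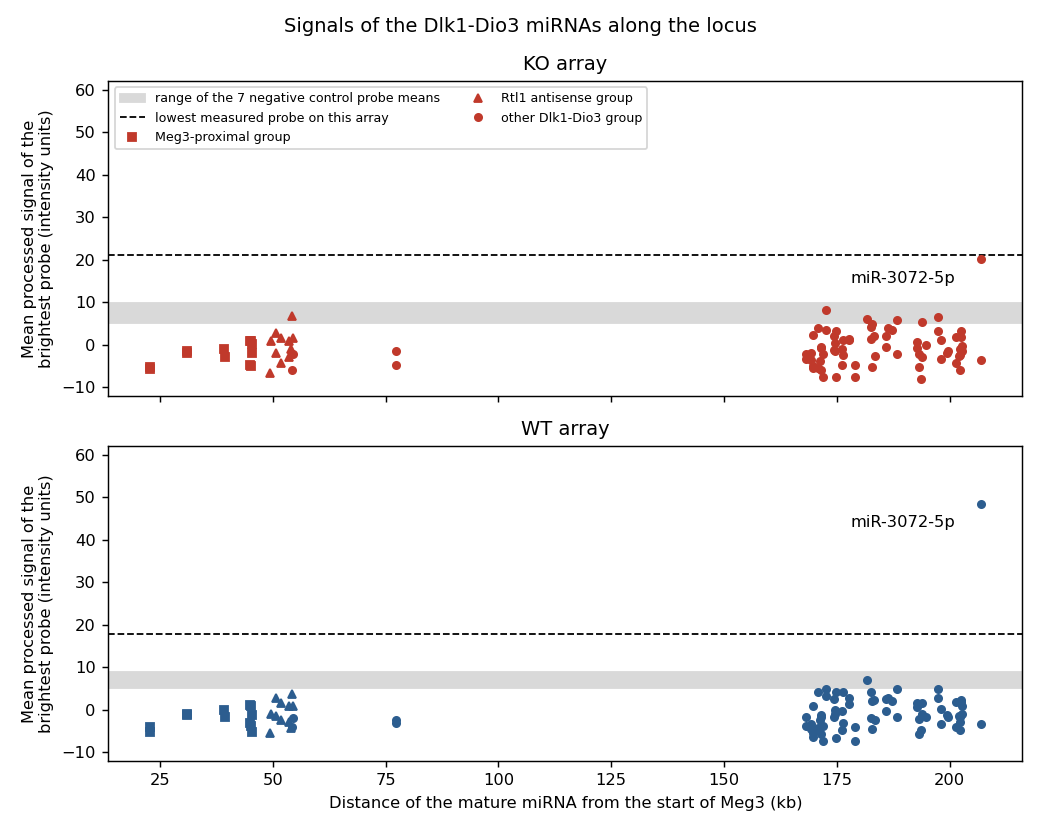
Signal of each Dlk1-Dio3 miRNA's brightest probe (vertical axis, intensity units) by its distance from the start of Meg3 (horizontal axis, kb), KO array above WT array, with the lowest measured probe of the array as a dashed line and the range of the 7 negative control means in grey. On both arrays the points form a flat band along the locus, from which miR-3072-5p at 206.9 kb stands out, at 20.0 on KO and 48.4 on WT.

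Along the locus, 97 of the 104 Dlk1-Dio3 members could be placed, from 22.7 to 206.9 kb past the start of Meg3, 93 on the plus strand and 4 on the minus strand. miR-770 lies inside Meg3, and miR-673, miR-493, miR-337, miR-540 and miR-665 lie past its end, within the span of the Rtl1 gene. Their 12 arms had median signals of -4.14 on KO and -3.41 on WT, and 5 of 12 were higher on KO. miR-770-5p averaged -7.45 ± 2.77 on KO and -5.31 ± 3.5 on WT.

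miR-431, miR-433, miR-127, miR-434, miR-432 and miR-136 are processed from the antisense transcript of Rtl1, a retrotransposon-derived gene needed in the mouse placenta, and can cut the Rtl1 mRNA. Their 11 arms had median signals of -0.777 on KO and -2.46 on WT, with 5 of 11 higher on KO. miR-127-3p averaged 0.84 ± 3.46 on KO and 0.90 ± 3.85 on WT. miR-136-5p, the brightest of the group, averaged 5.45 ± 3.81 on KO and 3.54 ± 3.14 on WT, within a spot SD of each other. miR-431-3p averaged -0.78 ± 3.88 on KO and -2.47 ± 3.54 on WT, also within a spot SD.

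Among the other arms of the group, miR-433-3p stood at -3.07 on KO and -2.46 on WT, and miR-433-5p at 1.22 on KO and 1.21 on WT. miR-434-3p stood at -0.12 on KO and 0.51 on WT, and miR-127-5p at -5.27 on KO and -5.13 on WT. miR-136-3p stood at 0.88 on both KO and WT, while miR-431-5p (-6.68 on KO and -5.46 on WT) and miR-434-5p (-3.48 on KO and -2.89 on WT) lay below 0. Opposite miR-136 on the minus strand, miR-3071-3p was lower on KO, at -6.58 ± 3.11 against -4.13 ± 3.78 on WT, both below 0.

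The remaining 81 arms of the locus include miR-370 in Rian, the miR-379 to miR-410 cluster, which in mouse is most active in brain and placenta, and miR-3071. Of these arms 7 could not be placed. Without miR-3072-5p, the 80 others had medians of -2.50 on KO and -2.32 on WT, and with it 38 of 81 were higher on KO. miR-370-3p averaged -5.22 ± 4.28 on KO and -3.86 ± 3.46 on WT. miR-379-5p, the first miRNA of the cluster, averaged -4.12 ± 3.43 on KO and -4.44 ± 3.20 on WT. miR-410-3p, near its end, averaged -0.94 ± 3.16 on KO and -1.62 ± 3.16 on WT. At both ends of the cluster the arrays differed by less than the spot SD.

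miR-134-5p, which restrains dendritic spine growth in rat neurons, averaged -7.11 ± 3.34 on KO and -7.46 ± 3.62 on WT. miR-411-5p averaged -4.84 ± 3.73 on KO and -4.20 ± 2.43 on WT. miR-485-3p averaged 1.95 ± 3.63 on KO and 0.40 ± 3.46 on WT. None of these 3 differed between the arrays by more than the spot SD.

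miR-370-5p stood at -3.69 on KO and -3.71 on WT, miR-379-3p at -2.17 on KO and -2.46 on WT, and miR-410-5p at -1.92 on KO and -1.30 on WT. miR-134-3p stood at -3.50 on KO and -3.06 on WT, miR-411-3p at -3.27 on KO and -4.80 on WT, and miR-485-5p at -2.37 on KO and -1.96 on WT. All 6 of these partner arms lay below 0 on both arrays.

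Precursors of the miR-376 family are edited by ADAR enzymes in mouse brain. Among the 5p arms, miR-376c-5p averaged 4.38 ± 4.11 on KO and 5.21 ± 2.84 on WT. miR-376b-5p averaged 3.77 ± 4.23 on KO and 4.10 ± 3.78 on WT. miR-376a-5p averaged 2.96 ± 4.03 on KO and 1.31 ± 2.80 on WT. All 3 of these 5p arms lay above 0 on both arrays, but below the brightest negative control.
Of the 3p arms, miR-376a-3p averaged -5.78 ± 4.10 on KO and -5.06 ± 3.16 on WT, miR-376b-3p -0.48 ± 3.63 on KO and -2.25 ± 3.08 on WT, and miR-376c-3p -1.90 ± 3.99 on KO and -1.85 ± 2.89 on WT. For each of these 6 arms the arrays differed by less than the spot SD.

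Of the brighter members of this stretch, miR-154-5p averaged 5.84 ± 4.28 on KO and 4.19 ± 3.03 on WT, and miR-329-5p 4.52 ± 4.13 on KO and 4.39 ± 3.98 on WT. At the dim end, miR-668-5p averaged -8.06 ± 3.45 on KO and -5.45 ± 3.07 on WT, the lowest KO minus WT difference of the 113 at -2.61. Both arrays had miR-668-5p below 0.

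Of the other imprinted loci, the Igf2 intron holds miR-483, and miR-483-3p was the brightest unmeasured member on KO. It averaged 10.4 ± 4.4 on KO and 6.44 ± 3.53 on WT, and its KO minus WT difference of 4.01 was the highest among the 113. Its 17-base probe averaged 9.72 ± 4.35 on KO (20 spots) and 6.25 ± 2.72 on WT (15 spots), and its 18-base probe 11.2 ± 4.44 on KO (19 spots) and 6.63 ± 4.18 on WT (20 spots). Both probes were higher on KO, but neither was measured on either array, and the spot SDs overlap. The difference of 4.01 lay above the range of the negative control probes (-0.195 to 1.91), inside which 61 of the 113 lay. Each control mean rests on more spots than a member's. The partner arm miR-483-5p stood at -3.57 ± 3.78 on KO and -4.43 ± 2.71 on WT.

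miR-335, in the Mest gene, gave a graded ladder of probes. The 19-, 20-, 21- and 22-base probes of miR-335-3p averaged 4.19, 6.04, 9.05 and 11.2 on KO, and 4.05, 5.09, 7.01 and 11.2 on WT. Each added base, an A of the probe, went with a higher signal, and the KO and WT arrays ended at the same value. The partner arm miR-335-5p averaged -4.34 ± 2.70 on KO and -5.03 ± 3.29 on WT.

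miR-675, in exon sequence of the non-coding RNA H19, restrains placental growth in mouse. miR-675-5p averaged -7.90 ± 4.39 on KO and -5.56 ± 4.01 on WT, and miR-675-3p -2.66 ± 3.84 on KO and -2.77 ± 2.56 on WT. Both arms of miR-675 were below 0 on both arrays.

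Beside Gnas, where antisense transcripts of the locus run, miR-296-5p averaged 5.08 ± 4.34 on KO and 7.49 ± 4.0 on WT, which was the highest WT signal of the 113. Its 17-base probe averaged 7.35 ± 3.94 on KO and 8.73 ± 3.42 on WT, and its 18-base probe 2.80 ± 4.70 on KO and 6.24 ± 4.5 on WT. Of the other arms, miR-296-3p stood at -5.21 ± 3.58 on KO and -5.02 ± 4.04 on WT, miR-298-5p at 3.37 ± 3.56 on KO and 2.97 ± 2.91 on WT, and miR-298-3p at 3.04 ± 4.48 on KO and 1.96 ± 4.31 on WT. Over all 10 arms of other loci the medians were 0.188 on KO and -0.405 on WT, and 7 of 10 were higher on KO.

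**Figure D4:**
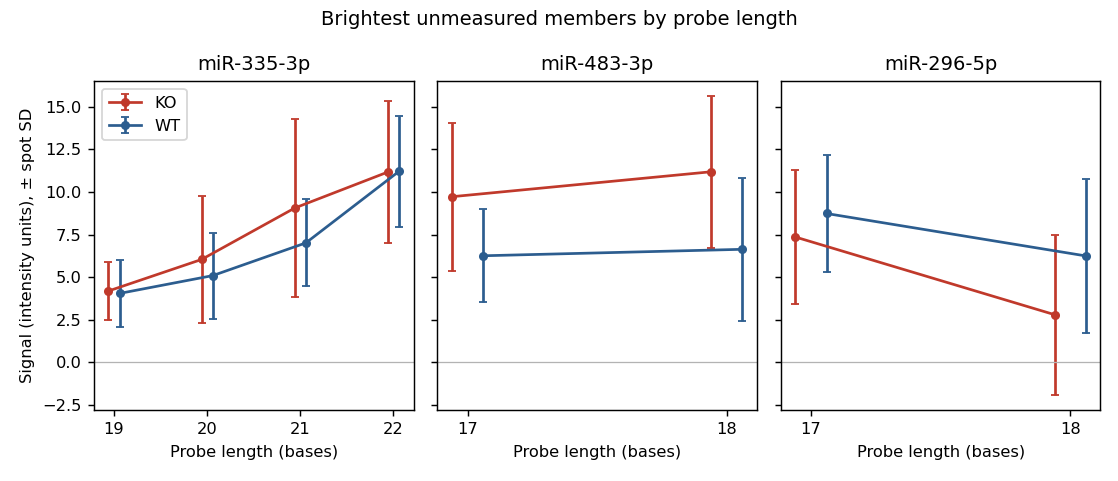
Mean processed signal (vertical axis, intensity units, with the SD over spots) of each probe of miR-335-3p, miR-483-3p and miR-296-5p by probe length (horizontal axis, bases), for the KO and WT arrays. The miR-335-3p series climbs to 11.2 on both arrays, miR-483-3p is higher on KO at both lengths and miR-296-5p lower on KO at both lengths, with overlapping SDs.

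Set member by member, the 2 arrays differed little among the 113 unmeasured members. Signals were higher on KO for 55 (48.7%) and on WT for 58, against 37.7% higher on KO among all 1141 miRNAs measured on neither array. The KO minus WT differences ran from -2.61 to 4.01 with a median of -0.0678. The negative control probes differed by -0.195 to 1.91, and 61 of the 113 members lay inside that range, against 383 of 1028 other unmeasured miRNAs. The control means rest on 96 to 394 spots each and the member means on fewer, so the control range is not a like-for-like measure of spread. Unscaled signals are compared here because many of these signals lie below 0, where a ratio has no meaning.

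**Figure D5:**
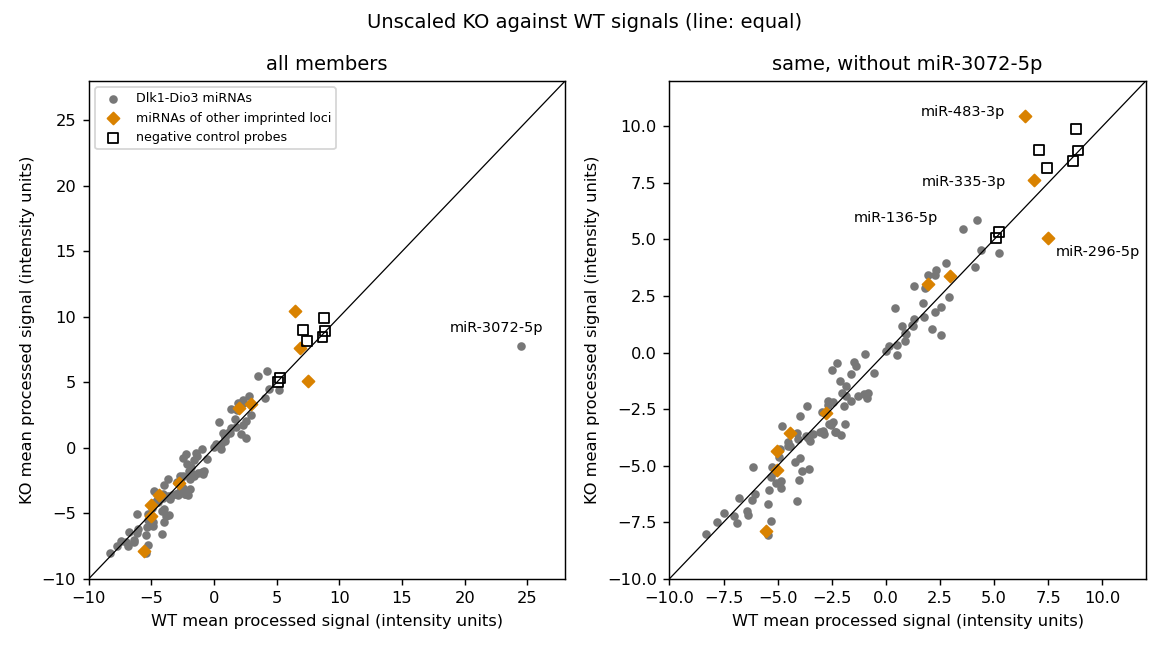
Processed signal on the KO array (vertical axis) against the WT array (horizontal axis), in intensity units, for all imprinted-locus miRNAs (left panel) and without miR-3072-5p (right panel), with the negative control probes as squares and the line of equal signal. The members run along the line from about -8 upward, and miR-483-3p lies above it and miR-296-5p below it.

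How high a member could stand without being measured differed between the arrays. The lowest measured probe was 21.1 on KO and 17.7 on WT. In scaled units these were 0.0990 on KO and 0.0364 on WT, so that the KO limit lay 2.72-fold above the WT limit. For the 113 members measured on neither array no fold between genotypes can be given, and their level was at most the limit on each array. A member just under the WT limit could thus have been about 2.72-fold higher in KO cells, after scaling, and still not measured there. Of the 100 miRNAs measured on WT, 72 would have stood above the KO limit had their level not changed, and 28 would not. Fewer cells expressing a miRNA and less of it per cell cannot be told apart in RNA of sorted populations.

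The dim signals varied with the make-up of the probes. Over the 305 member probes measured on neither array, signal correlated with probe length at r = 0.65 on KO and 0.64 on WT, and with the share of A in the probe at r = 0.73 on KO and 0.74 on WT. With the share of C it correlated at r = -0.55 on KO and -0.53 on WT. Member probes with less than 15% A (45 probes) had medians of -6.29 on KO and -5.42 on WT, those with 15% to under 30% A (134 probes) medians of -4.10 on KO and -4.08 on WT, and those with at least 30% A (126 probes) medians of 1.06 on KO and 0.99 on WT. Signals of the same probe on KO and WT correlated at r = 0.92. These correlations are across probes, which share their array and overlap in sequence, and their part in the levels above was not tested.

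Among the 107 members with a RefSeq sequence there were 99 seeds, 91 of them held by 1 member and 8 by a pair, and no seed was shared by 3 members. The pair with the highest signals was miR-376b-5p and miR-376c-5p, and another joins the first miRNA of the miR-379 to miR-410 cluster to miR-1193-5p. They are shown because miRNAs with the same seed pair with the same target sites.
miR-376b-5p: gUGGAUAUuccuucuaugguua
miR-376c-5p: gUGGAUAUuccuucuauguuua
miR-379-5p: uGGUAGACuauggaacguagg
miR-1193-5p: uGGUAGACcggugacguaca
miR-1193-5p averaged -7.52 ± 2.48 on KO and -6.88 ± 3.19 on WT. The values of the other 3 are those given above, and no member of either pair was measured. None of the 107 shared its seed with a measured miRNA from elsewhere in the genome.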

How the data were processed

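Per the labels' protocols, a Qiagen miRNeasy kit gave the total RNA, of which 100 ng took up Cyanine 3. Each deposited array file lists a linear intensity for every spot. The submitters' processing notes name Agilent Feature Extraction 10.7.3 as the software. According to the file headers, a spatial trend was subtracted, further background correction was off and the well-above-background multiplier was 13. The value table equalled the software's total gene signal for 1247 of 1247 miRNAs on both arrays (tolerance 0.1%).

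Spots marked as outliers (4.59% on KO and 5.16% on WT) and control spots were left out. Precision is limited by the number of arrays, so no p-value or SD across animals is given. A bound divides the bright scaled signal by the lowest scaled signal among probes measured on the dim array, or by the dim probe's own signal where this is higher. The members, lists and alternatives were chosen with earlier results of these data known. Named miRNAs were those measured on at least 1 array, the 6 brightest on each array, the 6 with the highest share of spots well above background (of which only miR-3072-5p had any), the 4 highest and 4 lowest KO minus WT differences, and a list set by name, which no value could remove. Sequences and positions come from RefSeq (GRCm38.p6). The code for the measured call was run on a simulated array built from the KO array, with signal added at known levels. The mark followed a set threshold there, and neither the scaling nor the comparison of arrays was simulated.

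Computations ran in R 4.3.3 with limma 3.58.1, and in Python 3.11.15 with scipy 1.17.1, pandas 2.3.3, numpy 2.4.6 and matplotlib 3.10.9. Alternatives changed the filter, the scaling, the correction for background (normexp in limma, offset 50), the outlier spots and the members, and 4 of them were added after the data were seen.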

Additional observations from a re-analysis of the deposited data

How the results depend on the processing

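The count of members measured on the WT array was 1 in every alternative run except when any spot sufficed and outlier spots were kept, an alternative added after the data were seen, which gave 19 on KO and 23 on WT. The count on KO was 0 except for that alternative and for 25% of spots, any spot, and the software's call, each of which gave 1 (miR-3072-5p). With normexp, which adds an offset of 50, the members' medians were 62.4 on KO and 64.3 on WT. For miR-3072-5p, whose KO signal was not measured, the log2 ratio of its own signals, KO over WT (-0.08, spot SD 0.31), was -1.17 with the 75th percentile over all probes, -1.27 without scaling, -0.52 with quantile normalization, -0.92 with positive controls and 0.55 with normexp at offset 50. It was 0.22 with normexp at offset 0 and 0.54 with 50 added to the processed signal, both tried after the data were seen, so that either step alone turned the sign. The bound on WT over KO (1.01) was 2.14 with all probes, 2.30 without scaling, 1.32 with quantiles and 1.8 with positive controls. With normexp at either offset, with 50 added and with the filter at 75% of spots, WT over KO was bounded only at a value under 1 (0.865 for the filter), so no fold is given. The KO limit over the WT limit (2.72) was 1.28 with all probes, 1.19 without scaling, 1.82 with quantiles, 1.52 with positive controls and 2.01 with normexp at offset 50. Between 53 and 98 of the WT-measured miRNAs stood above the KO limit. No paired analysis was possible because there was a lone array of each genotype. Signal over background limits the rest: 113 members were measured on neither array, and no fold is given for them.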

Other observations

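A further 12 miRNA arms that RefSeq places between Dlk1 and Dio3 were outside the chosen names. None was measured on either array, their medians were -3.74 on KO and -3.18 on WT, and 4 of 12 were higher on KO. miR-1188-3p, chosen after its values were seen, had the largest difference of the locus apart from miR-3072-5p, 5.55, with 3.85 ± 4.67 on KO (38 spots) and -1.70 ± 1.64 on WT (32 spots).

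miR-669, miR-467, miR-466 and miR-297, the families of the imprinted Sfmbt2 cluster, are not among the members and had 5 of 61 arms measured on KO, where 6.26% of all miRNAs were, and 1 of 61 on WT, where 8.02% were.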
